A study of Homo sapiens with 6 samples.

Results

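The interferon response genes examined here are 38 named genes whose transcription is known to rise when a cell senses interferon. They were taken as a named list, and each was read at its brightest probe set by mean over all 6 arrays. All 38 were found among the 19775 genes that the array's 54675 probe sets name one at a time. The miR-9 LNA arrays came from L428 cells, an established line of Hodgkin lymphoma, transfected by nucleofection with an LNA (locked nucleic acid) oligonucleotide that inhibits miR-9, a microRNA. The scrambled LNA arrays came from L428 cells given a scrambled LNA by the same procedure, so both groups carry a transfected oligonucleotide and there is no untransfected group in this comparison. Each group had 3 arrays of the type Affymetrix HG-U133 Plus 2.0, all read at 9 h from total RNA. Replicates carry numbers in the labels, which name no separate cultures, so the p-values cover the spread among these samples and that spread may be technical.

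Type I interferons bind the receptor chains IFNAR1 and IFNAR2, which activate the kinases JAK1 and TYK2 and a transcription factor complex that holds IRF9. That complex binds the interferon-stimulated response element (ISRE) in the promoters of its target genes. The products of those genes bind or cut viral RNA, block translation, attach the ubiquitin-like protein ISG15 to other proteins, and hold back virus entry or release. Foreign nucleic acid is sensed by RIGI and IFIH1 in the cytoplasm and by Toll-like receptors in endosomes. In Hodgkin lymphoma cells JAK signalling is often active without an outside ligand.

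The sequences shown first are those of the inhibited microRNA, with the seed (bases 2 to 8) in capitals, from RefSeq on GRCh38.p14. The labels do not say which arm the inhibitor was designed against, and both arms are given as encoded by MIR9-1 on chromosome 1.
hsa-miR-9-5p: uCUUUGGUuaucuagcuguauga
hsa-miR-9-3p: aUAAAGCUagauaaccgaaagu

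The promoters of most members carried the core of the ISRE. The motif searched was GAAA, then any 2 bases, then GAAA again, on either strand, from 250 bases before to 50 bases after each listed gene start in the promoter sequences from RefSeq (GRCh38.p14), with overlapping matches counted. Promoters were listed for 30 of the 38 members, and 22 of those 30 (73.3%) held at least 1 match. The background share was 4.38% of all 27305 genes with a listed promoter, and 3.57% of all 35116 windows of the same length. A match describes the letters only, and the list is made of genes known for this element, so the share is not an independent result.

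The windows below show the match nearest upstream of a gene start with 10 bases on either side, turned so that the motif (capitals) reads as searched. IFIT3, IFIT5, PARP9, PLSCR1 and IFI44L are shown because their arrays did not overlap between the groups, and ISG15 and IFIT1 as 2 of the best known targets of the pathway.
IFIT3 (chr10:89332468-89332497, minus strand): aaggggaaagGAAAGTGAAActgatggaac
IFIT5 (chr10:89414539-89414568, minus strand): tgaaacttaaGAAATCGAAActaaacgtaa
PARP9 (chr3:122564322-122564351, plus strand): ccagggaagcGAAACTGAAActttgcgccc
PLSCR1 (chr3:146544667-146544696, minus strand): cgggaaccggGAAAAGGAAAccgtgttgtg
IFI44L (chr1:78620365-78620394, plus strand): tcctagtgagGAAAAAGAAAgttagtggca
ISG15 (chr1:1013380-1013409, plus strand): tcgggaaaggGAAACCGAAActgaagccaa
IFIT1 (chr10:89392510-89392539, minus strand): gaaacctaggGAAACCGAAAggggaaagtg

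The ISG15 match ended 97 bases before the gene start, the IFIT1 match 93 and the IFIT5 match 9. The PARP9 match lay 31 bases before a PARP9 start, and the same 10 bases also fell in the promoter window of DTX3L, which is transcribed the other way from the same stretch. SAMD9L, RIGI, IRF9, OAS1, HERC6, XAF1, CMPK2 and IFI35 had a listed promoter without a match in this window.

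**Figure D1:**
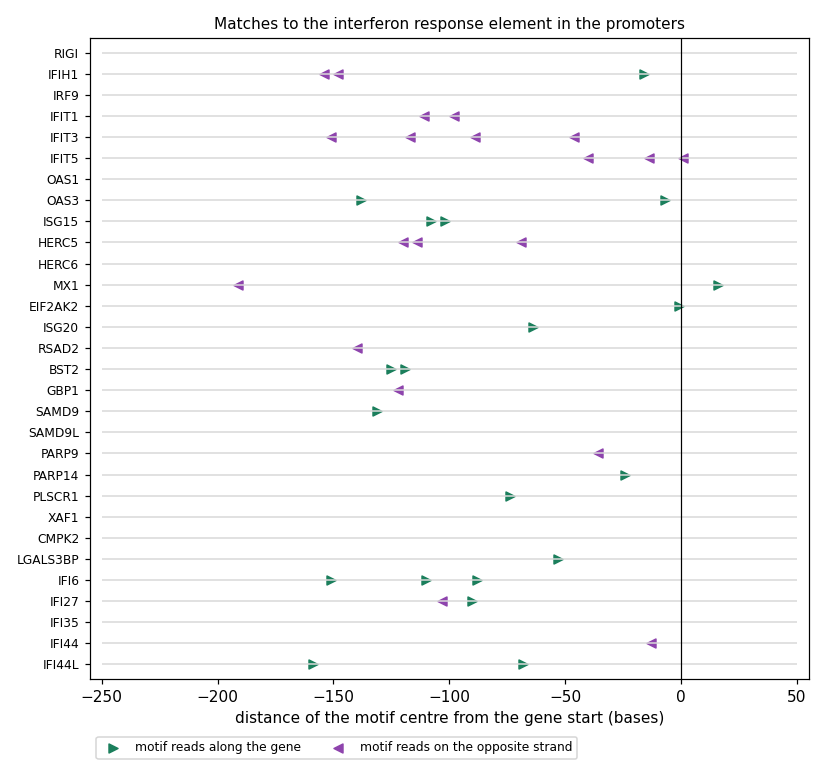
Positions of the ISRE core in the listed promoters of 30 interferon response genes, as distance in bases of the motif centre from the gene start (0), with 1 row per gene. Triangles point right where the motif reads along the gene and left where it reads on the opposite strand; 22 rows hold at least 1 triangle.

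Facts of the arrays bear on every value that follows. Values are log2 RMA levels as deposited, and no array holds a value far below 6, which can shrink the differences of dim genes. The 90th percentile was 9.57, 9.53 and 9.57 on the miR-9 LNA arrays, against 9.28 on scrambled replicate 1 and 9.45 and 9.47 on the other scrambled arrays. Markers of Reed-Sternberg cells were all above the level filter described next (8 of 8, TNFRSF8 and CCL17 among them), while 0 of 6 T and NK cell markers, 1 of 5 myeloid markers, 2 of 4 B cell markers and 4 of 6 fibroblast or epithelial markers were. Those 4 were COL1A1, KRT8, KRT18 and COL1A2, at mean levels of 8.16, 7.32, 7.32 and 7.11, and their part in the results was not tested. The B cell markers above it were CD79A and CD22, at mean levels of 7.36 and 7.26, and Reed-Sternberg cells are known to have lost much of the B cell program.

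Probe sets were tested where their mean over the 6 arrays reached the median of all probe sets, a log2 level of 7.11. Of the 38 members 31 reached it, and 7 lay below it: IFIT1, OAS1, IFI27, RSAD2, TRIM22, CMPK2 and LGALS3BP. Their mean levels over the 6 arrays were between 6.45 and 7.06. Several genes that respond most strongly to interferon in other cells thus lay below the array's middle level in L428 by that mean. By group, only the IFI27 mean with the scrambled LNA (7.14) lay above that level. IFIT1, which binds viral RNA caps, was at 6.69, 6.66 and 6.75 with the miR-9 LNA, against 6.87, 6.67 and 6.74 with the scrambled LNA. OAS1, which makes the 2'-5' oligoadenylates that activate an RNA-cutting enzyme, was at 6.80, 6.88 and 6.92 with the miR-9 LNA, against 7.02, 6.92 and 6.88 with the scrambled LNA. The groups overlapped for both genes, and scrambled replicate 1 was the highest array for each. IFI27 had the lowest difference of the 7, with 6.92, 6.94 and 7.08 with the miR-9 LNA, against 7.18, 7.06 and 7.20 with the scrambled LNA. The log2 difference of IFI27 was -0.16 ± 0.07 (SE; limma without the level filter, adjusted p = 0.441), and RSAD2, TRIM22, CMPK2 and LGALS3BP differed by 0.03, 0.05, -0.05 and -0.12.

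The comparison sets the interferon program of cells with blocked miR-9 against that of cells with the scrambled LNA. No interferon response gene passed the threshold. The 31 tested members lay slightly higher with the miR-9 LNA, with a median log2 difference of 0.09 and a range from -0.07 to 0.30. The members with the smallest p were SAMD9L, PARP9 and PLSCR1, each about 1.2-fold higher with the miR-9 LNA (1.205, 1.23 and 1.227). The typical tested probe set on the array was higher too, with a median of 0.06. After cyclic loess normalization the medians of the members and of all tested probe sets were -0.003 and 0.0006. Against probe sets of like level, the members lay higher at some levels and lower at others.

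Of the 31 tested members 0 passed a limma adjusted p under 0.05 (Benjamini-Hochberg over all 27307 tested probe sets), and over the whole array 0% did, with a lowest adjusted p of 0.296. By direction 26 members (83.9%) were higher and 5 lower, where 66.9% of all tested probe sets were higher and the median of all was 0.06. At an unadjusted p under 0.05, 6 members (19.4%) were higher and 0 lower, against 13.8% and 0.626% of all tested probe sets. For 7 members (22.6%) no miR-9 LNA array overlapped the scrambled arrays, each higher with the miR-9 LNA, against 18.1% of all tested probe sets higher and 3.97% lower. In the same-numbered pairs of arrays 13 members (41.9%) were higher in every pair, against 40.2% of all tested probe sets. The shares past the unadjusted p, without overlap and higher in every pair lay near the background of the whole array and are no result about the interferon genes. In the limma fit with a block for replicate number, 11 of the 31 members were at an unadjusted p under 0.05. Of all tested probe sets 22.8% were, and again 0 passed the threshold. The larger member shares by direction and with the block were not tested, because the members were chosen with earlier results known.

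The members' differences depended on how the arrays were scaled against each other. After quantile normalization the median of the 31 members was 0.008, with 16 higher, and after cyclic loess normalization it was -0.003, with 15 higher and 16 lower. Cyclic loess removes a difference that varies with level, and over all tested probe sets it gave a median of 0.0006. Median centring of the arrays instead gave a members' median of 0.11, with 28 higher, and a median of 0.09 over all tested probe sets. In the deposited values the median of all probe sets was higher in each brighter bin of 5 equal bins by level, and the members' medians followed that order except between the 2 dimmest bins. In the brightest bin 7 members had a median of 0.16 and all probe sets 0.19. In the bin below it 11 members had a median of 0.12 and all probe sets 0.14. In the third bin 7 members were at 0.10 and all probe sets at 0.06. The bins below held 4 members with a median of -0.03 and all probe sets at -0.005, and at the dim end 2 members with a median of 0.02 and all probe sets at -0.03.

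**Figure D2:**
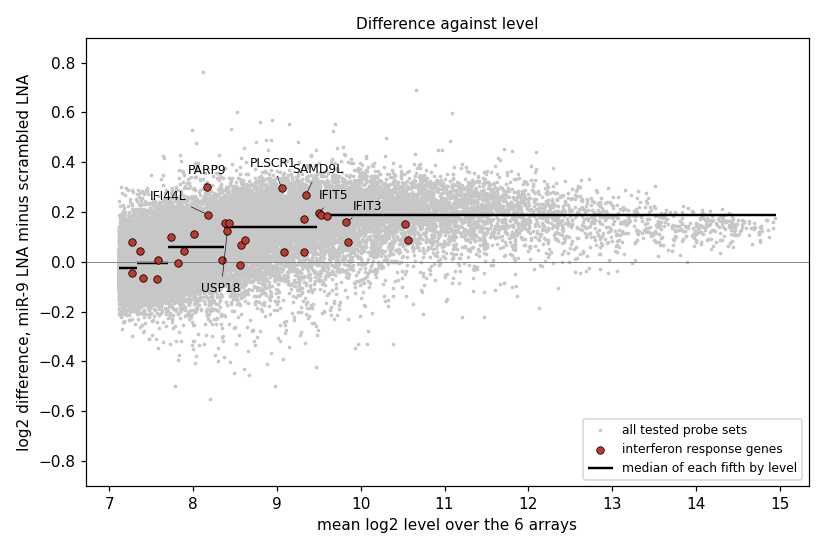
Log2 difference (miR-9 LNA minus scrambled LNA) against mean log2 level over the 6 arrays, for all 27307 tested probe sets (grey) and the 31 tested interferon response genes (red). Black bars are the medians of all probe sets in 5 equal bins by level, from -0.03 in the dimmest to 0.19 in the brightest, and the red points lie among the grey ones.

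**Figure D3:**
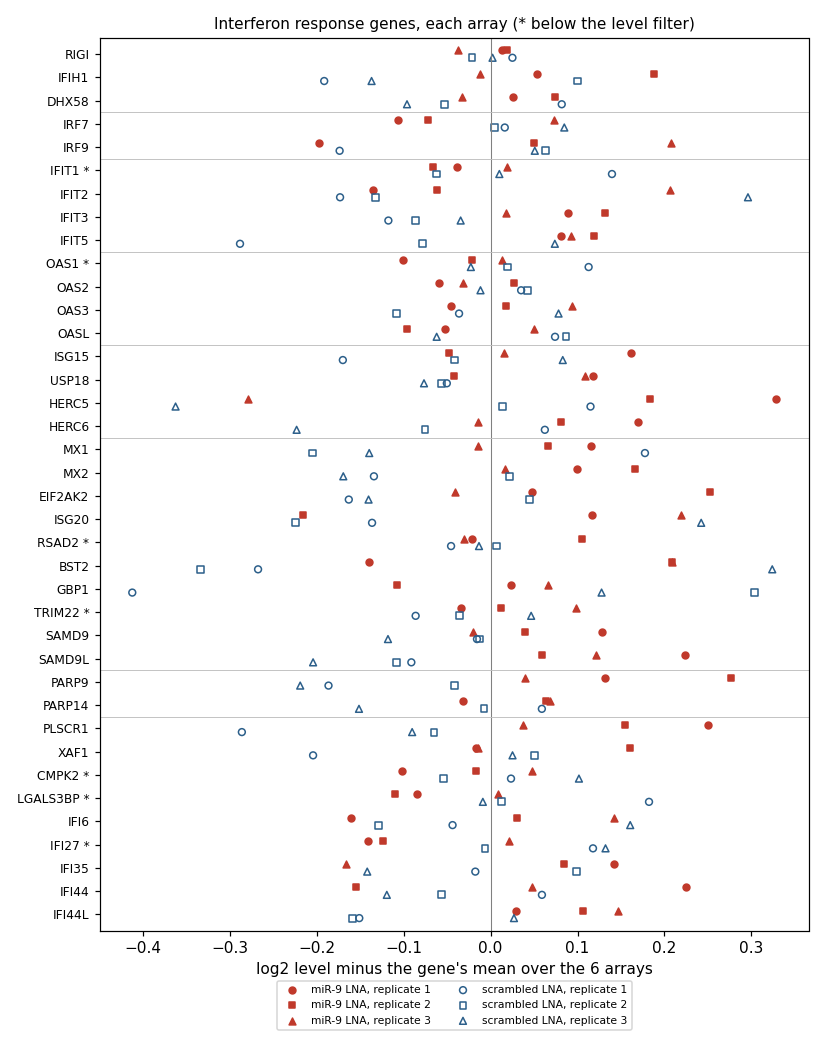
Levels of all 38 interferon response genes on each array, as log2 level minus the gene's mean over the 6 arrays. Filled red symbols are miR-9 LNA arrays, drawn above the open blue symbols of the scrambled arrays, and the symbol's shape gives the replicate number; an asterisk marks the 7 genes below the level filter, and grey lines separate the functional groups.

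Among the sensors of viral RNA, all 3 genes were above the filter and the groups overlapped for each. IFIH1 (MDA5), which binds long double-stranded RNA, was at 10.58, 10.72 and 10.52 with the miR-9 LNA, against 10.34, 10.63 and 10.39 with the scrambled LNA. The groups overlapped, with a log2 difference of 0.15 ± 0.09 (SE, n = 3 arrays each; limma adjusted p = 0.469), or -0.04 after cyclic loess normalization. Its other 2 probe sets were at differences of 0.19 and 0.08, and both became negative without scrambled replicate 1 (-0.07 and -0.02). RIGI, which binds short RNA with a 5' triphosphate, averaged 7.82 ± 0.03 with the miR-9 LNA, against 7.82 ± 0.02 with the scrambled LNA (SD, n = 3 each). That value comes from the brightest RIGI probe set, and its 2 other probe sets lay below the filter. DHX58 (LGP2), a regulator of both sensors, differed by 0.04 ± 0.07.

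The transcription factors IRF9 and IRF7 overlapped between the groups. IRF9, the DNA-binding subunit of the interferon-activated complex, was at 8.89, 9.13 and 9.29 with the miR-9 LNA, against 8.91, 9.15 and 9.13 with the scrambled LNA. The groups overlapped almost wholly, with a log2 difference of 0.04 ± 0.12 (limma adjusted p = 0.883), or -0.11 after cyclic loess normalization. IRF7, which drives the interferon genes themselves, averaged 7.53 ± 0.10 with the miR-9 LNA, against 7.60 ± 0.04 with the scrambled LNA, and differed by -0.07 ± 0.07 (limma adjusted p = 0.638).

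The IFIT family, neighbouring genes whose proteins bind viral RNA, had 3 tested members, none of which passed the threshold. IFIT3 was at 9.92, 9.96 and 9.85 with the miR-9 LNA, against 9.71, 9.74 and 9.79 with the scrambled LNA. The 3 miR-9 LNA arrays were the highest, and the log2 difference was 0.16 ± 0.06 (limma adjusted p = 0.319; exact permutation p = 0.1, two-sided, the smallest that 3 against 3 arrays allow). A second IFIT3 probe set also did not overlap, with a difference of 0.23 ± 0.07. After quantile and cyclic loess normalization the IFIT3 difference at its brightest probe set was -0.004 and -0.02. IFIT5 was at 9.58, 9.62 and 9.59 with the miR-9 LNA, against 9.21, 9.42 and 9.57 with the scrambled LNA. The groups touched without overlapping, with a difference of 0.20 ± 0.09 (limma adjusted p = 0.380) that was 0.10 without scrambled replicate 1, its lowest array. After quantile and cyclic loess normalization the IFIT5 difference was 0.05 and 0.03. A second IFIT5 probe set did not overlap either, at 8.47 ± 0.03 with the miR-9 LNA, against 8.24 ± 0.09 with the scrambled LNA. IFIT2 was at 7.44, 7.52 and 7.79 with the miR-9 LNA, against 7.41, 7.45 and 7.88 with the scrambled LNA. IFIT2 was thus highest on replicate 3 of both groups, and the group means differed by 0.01 ± 0.14. A second IFIT2 probe set did not overlap in the other direction, at 7.23, 7.24 and 7.29 with the miR-9 LNA, against 7.34 on each scrambled array, a difference of -0.09.

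The OAS family, which synthesizes 2'-5' oligoadenylates on sensing double-stranded RNA, was dim. OAS2 averaged 7.25 ± 0.04 with the miR-9 LNA, against 7.29 ± 0.03 with the scrambled LNA. OAS3 averaged 7.91 ± 0.07 with the miR-9 LNA, against 7.87 ± 0.09 with the scrambled LNA. OASL, a relative without the synthase activity, differed by -0.07 ± 0.07. The groups overlapped for each of the 3 tested OAS genes.

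The genes of ISG15 conjugation were all above the filter, and all 4 group means were higher with the miR-9 LNA, as were 66.9% of all tested probe sets. ISG15, the ubiquitin-like modifier, was at 10.73, 10.52 and 10.58 with the miR-9 LNA, against 10.40, 10.52 and 10.65 with the scrambled LNA. The groups overlapped, the difference was 0.09 ± 0.09 (limma adjusted p = 0.651), and without scrambled replicate 1 it was 0.02. USP18, the protease that removes ISG15 and damps the interferon receptor, was at 8.53, 8.37 and 8.52 with the miR-9 LNA, against 8.36, 8.35 and 8.33 with the scrambled LNA. The USP18 arrays did not overlap, though 8.37 and 8.36 were nearly level, and the difference was 0.12 ± 0.07 (limma adjusted p = 0.413). HERC5, the main ligase that attaches ISG15, was at 8.71, 8.57 and 8.11 with the miR-9 LNA, against 8.50, 8.40 and 8.02 with the scrambled LNA. HERC5 was lowest on replicate 3 of both groups, and its pairs differed by 0.21, 0.17 and 0.08. Its neighbour HERC6 was also lowest on replicate 3 of both groups and differed by 0.16 ± 0.09 (limma adjusted p = 0.435). After cyclic loess normalization HERC5 and HERC6 differed by 0.06 each, USP18 by 0.02 and ISG15 by -0.11.

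Of the direct antiviral effectors 8 of 10 were tested. Of those 7 had a higher mean with the miR-9 LNA, as did 66.9% of all tested probe sets. SAMD9L, an interferon-induced translation inhibitor that restricts poxviruses and slows growth, had the smallest p of all members. SAMD9L was at 9.57, 9.41 and 9.47 with the miR-9 LNA, against 9.25, 9.24 and 9.14 with the scrambled LNA. The groups were well apart, with a log2 difference of 0.27 ± 0.07 (limma adjusted p = 0.296), which was 0.11 after cyclic loess normalization. The other 2 SAMD9L probe sets differed by 0.17 and -0.14. Its neighbour SAMD9 averaged 7.78 ± 0.07 with the miR-9 LNA, against 7.69 ± 0.06 with the scrambled LNA, so that SAMD9 differed by 0.10 ± 0.07.

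The dynamin-like GTPases MX1 and MX2 are neighbours on chromosome 21 and trap viral nucleocapsids. MX2 was at 9.62, 9.69 and 9.54 with the miR-9 LNA, against 9.39, 9.54 and 9.35 with the scrambled LNA. Only the values near 9.54 met, and the difference was 0.19 ± 0.08 (limma adjusted p = 0.330), or 0.02 after cyclic loess normalization. MX1 was at 8.13, 8.08 and 8.002 with the miR-9 LNA, against 8.19, 7.81 and 7.88 with the scrambled LNA. The highest MX1 value lay on scrambled replicate 1, and without it the difference of 0.11 ± 0.11 became 0.23.

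The groups overlapped for the 4 remaining effectors. EIF2AK2 (PKR), the kinase that halts translation on double-stranded RNA, differed by 0.17 ± 0.10 at its brightest probe set and by -0.01 and -0.04 at its other 2. After cyclic loess normalization EIF2AK2 and BST2 differed by 0.01 each, ISG20 by -0.10 and GBP1 by -0.12. BST2 (tetherin), which holds budding virus at the cell surface, was at 9.46, 9.81 and 9.81 with the miR-9 LNA, against 9.34, 9.27 and 9.93 with the scrambled LNA. All 3 BST2 values with the miR-9 LNA lay within the range of the scrambled arrays, with a difference of 0.19 ± 0.18 (limma adjusted p = 0.638). The guanylate-binding GTPase GBP1 had its lowest value on scrambled replicate 1 (8.15) and its highest on scrambled replicate 2 (8.86), with the miR-9 LNA arrays at 8.58, 8.45 and 8.63 between them. Its difference was -0.01 ± 0.17 with all arrays and -0.22 without scrambled replicate 1. At further tested GBP1 probe sets the difference was 0.15 and 0.02 with all arrays, and 0.08 and -0.19 without scrambled replicate 1. ISG20, a 3'-5' exonuclease, was at 10.07 on replicate 3 with the miR-9 LNA, against 10.09 on replicate 3 with the scrambled LNA, while its remaining 4 values ran from 9.63 to 9.97.

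The ADP-ribosylation genes PARP9 and PARP14 lie beside DTX3L, a ubiquitin ligase that forms a complex with PARP9. PARP9 was at 8.30, 8.44 and 8.21 with the miR-9 LNA, against 7.98, 8.12 and 7.95 with the scrambled LNA. The groups did not overlap, and the pairs differed by 0.32, 0.32 and 0.26. The PARP9 log2 difference was 0.30 ± 0.08 (limma adjusted p = 0.296), the largest among the 31 tested members. It was 0.23 after quantile normalization and 0.22 after cyclic loess normalization. PARP9 alone among the 31 tested members had a limma unadjusted p under 0.05 there (0.0279 and 0.0287). Of all 27307 tested probe sets 1243 and 1348 were at that p, so 1 member of 31 is no result about the interferon genes. A second PARP9 probe set, close to the filter, averaged 7.36 ± 0.10 with the miR-9 LNA, against 7.32 ± 0.06 with the scrambled LNA, and differed by 0.04 ± 0.07. DTX3L, which shares the ISRE match printed for PARP9 and is no member of the list, was at 9.48, 9.44 and 9.31 with the miR-9 LNA, against 8.97, 9.21 and 9.10 with the scrambled LNA. The DTX3L difference was 0.31 ± 0.08 (limma adjusted p = 0.296), and 0.16 after cyclic loess normalization. PARP14, on the far side of DTX3L, differed by 0.07 ± 0.07, and by -0.05 after cyclic loess normalization.

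Of the other members, PLSCR1 and IFI44L did not overlap between the groups. PLSCR1, a phospholipid scramblase that limits virus entry, was at 9.31, 9.21 and 9.10 with the miR-9 LNA, against 8.77, 8.99 and 8.97 with the scrambled LNA. Its log2 difference was 0.29 ± 0.09 (limma adjusted p = 0.296), 0.23 without scrambled replicate 1 and 0.15 after cyclic loess normalization. A second tested PLSCR1 probe set overlapped between the groups. It differed by 0.21 ± 0.10, by 0.13 without scrambled replicate 1 and by 0.20 after cyclic loess normalization. IFI44L was at 8.21, 8.28 and 8.32 with the miR-9 LNA, against 8.03, 8.02 and 8.20 with the scrambled LNA. The lowest miR-9 LNA array and the highest scrambled array were nearly level, and the difference was 0.19 ± 0.07 (limma adjusted p = 0.324), or 0.11 after cyclic loess normalization. Its neighbour IFI44 differed by 0.08 ± 0.10. XAF1, a pro-apoptotic protein, differed by 0.09 ± 0.09, IFI35 by 0.04 ± 0.10 and IFI6, a mitochondrial protein that delays apoptosis, by 0.01 ± 0.10. After cyclic loess normalization XAF1 differed by -0.03, IFI35 by -0.12 and IFI6 by -0.08.

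**Figure D4:**
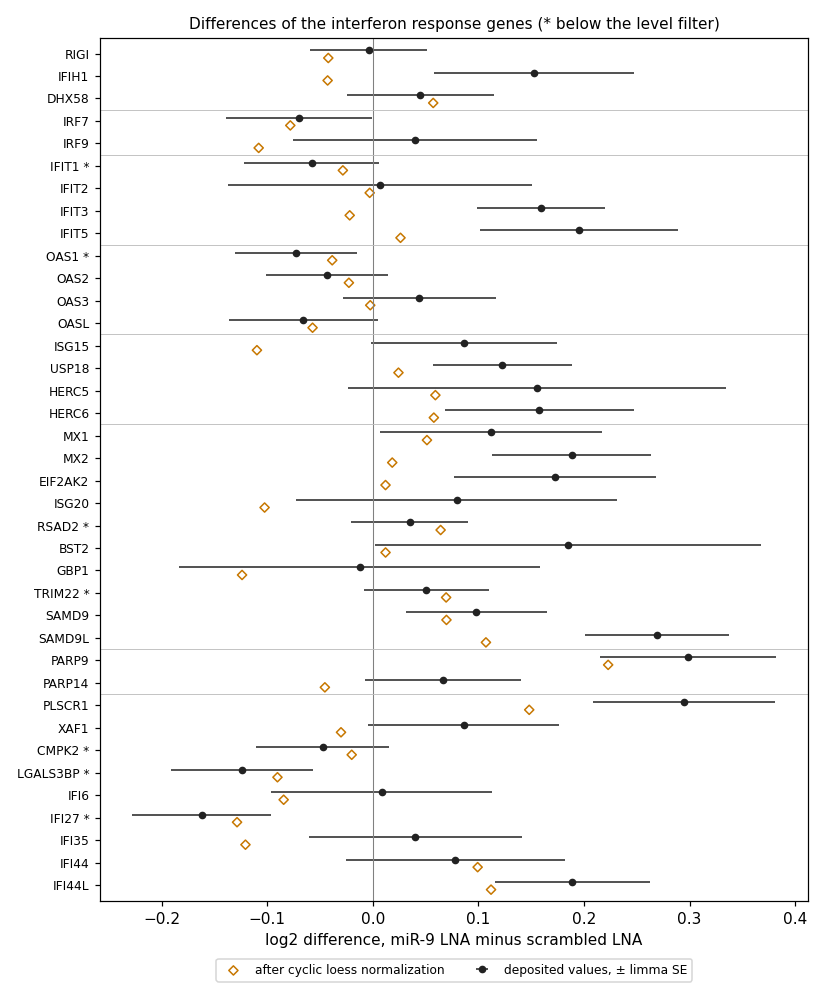
Log2 differences (miR-9 LNA minus scrambled LNA) of the 38 interferon response genes. Black points with bars are deposited values ± limma SE, and open diamonds are values after cyclic loess normalization; PARP9 kept a difference of 0.22 there, while IFIT3 and IFIH1 lay at or below 0.

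Where members had several probe sets above the filter, they did not always agree. Of 14 such genes 9 had all probe sets on one side of 0. The 18 further probe sets of these genes had a median of 0.06 on the log2 scale, with 11 higher, and 0 passed the threshold. IFIT3, IFIT5 and PLSCR1 were higher at each tested probe set, OAS2 and OASL were lower at each, and SAMD9L, GBP1, EIF2AK2, IFIT2 and XAF1 were mixed. Probe sets of the IFIT and OAS families may share sequence with relatives, which was not tested.

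Replicate 3 was the highest array in both groups for 7 members, namely IRF7, IFIT2, OAS3, ISG20, BST2, IFI6 and IFI44L. It was the lowest in both groups for another 7, namely DHX58, HERC5, HERC6, MX2, SAMD9, PARP9 and IFI35. Of all tested probe sets 22.9% were highest on replicate 3 in both groups and 13.8% lowest, against 22.6% each for the members. The members thus differed in which replicate was highest.

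Genes upstream of the response were read from 3 lists and showed the same picture, with 0 of 32 tested genes past the threshold. Of 15 ligands and receptors 7 were tested, and 8 interferon genes lay below the filter. IFNG, the type II interferon, lay just above it, at 7.12, 7.37 and 7.09 with the miR-9 LNA, against 7.19, 7.32 and 7.17 with the scrambled LNA. IFNB1, the first type I interferon made on sensing of nucleic acid, was among those below, at 6.74, 6.82 and 6.76 with the miR-9 LNA, against 6.99, 6.89 and 6.81 with the scrambled LNA. The groups overlapped for both. The receptor chain IFNAR1 was at 8.37, 8.51 and 8.42 with the miR-9 LNA, against 8.14, 8.27 and 8.21 with the scrambled LNA, and did not overlap, differing by 0.23 ± 0.07 (limma adjusted p = 0.296). IFNLR1, a chain of the type III receptor, did not overlap in the other direction and differed by -0.11 ± 0.06. Of all tested probe sets 18.1% were higher without overlap and 3.97% lower. IFNGR2 overlapped and differed by 0.14 ± 0.13. After cyclic loess normalization IFNAR1 differed by 0.14, IFNLR1 by -0.13 and IFNGR2 by -0.02, and 2 of the 7 tested ligands and receptors were higher. In the deposited values 5 (71.4%) were, against 66.9% of all tested probe sets.

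Among 14 tested genes of nucleic acid sensing and induction the median log2 difference was 0.06, with 10 (71.4%) higher. After cyclic loess normalization it was -0.01, with 5 higher. Of all tested probe sets 66.9% were higher in the deposited values, with a median of 0.06. TBK1, the kinase that activates IRF3, was at 10.73, 10.78 and 10.63 with the miR-9 LNA, against 10.41, 10.52 and 10.39 with the scrambled LNA, and differed by 0.27 ± 0.07 (limma adjusted p = 0.296). TBK1 differed by 0.08 after cyclic loess normalization. MYD88, the Toll-like receptor adaptor, differed by 0.18 ± 0.06, and TRIM25, a ubiquitin ligase acting on RIGI, by 0.28 ± 0.09. After cyclic loess normalization MYD88 differed by -0.01 and TRIM25 by 0.09. Among 11 tested genes of interferon signalling the median was 0.11, with 10 (90.9%) higher, and after cyclic loess normalization it was -0.05, with 3 higher. JAK2 differed by 0.19 ± 0.07, JAK1 by 0.25 ± 0.12 and TYK2 by 0.11 ± 0.07, and after cyclic loess normalization by 0.09, 0.06 and -0.06.

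A further list of interferon-stimulated genes outside the 38 had 43 tested genes and 0 past the threshold. Their median was 0.14 on the log2 scale, and 41 (95.35%) were higher, against 0.06 and 66.9% of all tested probe sets. All probe sets in the 2 brightest bins by level had medians of 0.14 and 0.19, and this list was not compared by level. After cyclic loess normalization the median of the list was 0.01, with 23 higher. DTX3L had the smallest p, followed by PNPT1, a mitochondrial exonuclease (0.27 ± 0.07), and ZC3HAV1, which directs viral RNA to decay (0.28 ± 0.07). PNPT1 and ZC3HAV1 differed by 0.07 and 0.08 after cyclic loess normalization. The ISRE core was found in the promoters of 26 of 38 listed genes of this list (68.4%). In the deposited values, tested members of the interferon response with a match had a median difference of 0.13 over 18 genes. Those with a listed promoter and no match were at 0.06 over 6 genes, and all tested probe sets at 0.06. The tested members without a listed promoter are outside this split. They were DHX58, IRF7, IFIT2, OAS2, OASL, USP18 and MX2, with differences of 0.04, -0.07, 0.01, -0.04, -0.07, 0.12 and 0.19. SAMD9L, the member of smallest p, was among those without a match. The split describes these genes with no test, and its dependence on level and normalization was not tested.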

How the data were processed

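The authors deposited log2 values for 54675 probe sets, computed by RMA in affy, per the submitters' processing notes, with versions not given in the sources used here. Whether a step beyond RMA raised the lowest log2 values near 6 is not stated. After removal of 62 control probe sets, the 27307 probe sets at or above the median mean level (7.11) were tested with limma 3.58.1 in R 4.3.3 (lmFit, eBayes, two-sided, Benjamini-Hochberg, threshold 0.05), miR-9 LNA minus scrambled LNA. Members below that level were read from a fit without the filter. Names came from the platform annotation, updated through Entrez ID on GRCh38.p14, using probe sets with 1 gene only. Members and gene lists were chosen with earlier results of these data known. All members are accounted for. Arrays are given for members at an unadjusted p under 0.05, without overlap or of largest difference, for IFIT1, ISG15, MX1, OAS1 and IRF9, and for some others picked after their values were seen. Of each upstream list up to 3 genes of smallest p are named, besides IFNG and IFNB1. Across the pathway and marker lists 7 genes were not analysed here. Deviations of same-numbered arrays correlated at r = 0.231, 0.193 and 0.634 over probe sets. Those of miR-9 LNA replicate 1 with scrambled replicate 2 correlated at 0.168, and those of 2 with 1 at 0.077. The match by number was thus clear for replicate 3 only, and the labels do not say what a number marks. The fit was tested on simulated data. Figures used matplotlib 3.10.9 in Python 3.11.15.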

Additional observations from a re-analysis of the deposited data

How the results depend on the processing

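Over 16 alternatives to the filter, normalization, variance model, array weights, pairing, probe set rule and arrays included, limma called 0 interferon response members, 0 pathway genes and 0 probe sets of the array. The members at an unadjusted p under 0.05 numbered 6, and 3 with the variability filter, 1 after quantile and 1 after cyclic loess normalization, and 11 with the replicate block. Without 1 array each they numbered 4 to 7. Probe sets of the array at that p numbered 3926, and 1243 after quantile normalization, 1348 after cyclic loess normalization, 6218 with the replicate block and 2408 to 4383 without 1 array each. The members' median log2 difference of 0.09 was 0.12 with the variability filter, which tested 26 members, 0.00772 after quantile and -0.00252 after cyclic loess normalization, and 0.09 to 0.11 without 1 array each. Members with a higher mean numbered 26, and 16 after quantile and 15 after cyclic loess normalization. After median centring 28 were higher, with a median of 0.11. The difference changed sign for 10 and 11 of the 31 tested members under quantile and cyclic loess normalization, and for 0 to 5 under the other alternatives. PARP9, PLSCR1, SAMD9L, IFI44L, IFIT5, USP18 and MX2 were higher in 16 of 16 alternatives, and IFIT3 in 14. These genes were picked from the same arrays for groups without overlap or a small unadjusted p, so the counts were largely fixed in advance. A change of level filter, variance model or block leaves the difference as it is. Leaving out 1 array cannot change its sign for a gene without overlap. The alternatives reuse the same 6 arrays, and such a count over all probe sets was not made. The replicate block changed no call. The cause of the dependence on normalization was not tested. Precision is limited by 3 arrays per group, and members near the level filter by their signal over background.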
